A study of Mus musculus with 8 samples.

Results

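Axon guidance genes encode the cues that steer growing axons, the receptors that read them and the cytosolic proteins that pass the signal on to the growth cone. The 74 genes described here were chosen by gene symbol alone, as all members of the Eph, ephrin, semaphorin, plexin, neuropilin, Robo, Slit, netrin, Unc5 and collapsin response mediator protein (CRMP) families, with Dcc, among the 24849 genes listed in the files. No FPKM value entered the symbol pattern, but the group was proposed with earlier results of these samples in view, the difference between genotypes at day 6 among them. The counts of changed members at day 6 are therefore given as a description. RNA-seq was performed on poly(A) RNA of mESCs of the MPI-II line (129S2/SvPas) in 4 conditions with 2 biological replicates each. Wild type and Pcgf5-/- mESCs were kept on feeders with serum, LIF and the 2i inhibitors CHIR99021 and PD0325901 (day 0), or were cultured for 6 days in N2B27, which holds no serum and lets mESCs take a neural path (day 6). PCGF5 is a subunit of Polycomb repressive complex 1. It was removed with a TALEN pair that cuts in the second exon of Pcgf5 and with donor cassettes for puromycin and neomycin resistance, followed by picking of single colonies. The sources used here do not say how many knockout colonies entered the RNA-seq, and wild-type cells were the control.

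Ephrins are ligands held on the cell surface and bind Eph receptor tyrosine kinases on neighbouring cells. Semaphorins signal through plexins, with neuropilins as co-receptors for the secreted class, Slits through Robo receptors, and netrins through DCC and the UNC5 receptors. CRMPs, encoded by Crmp1 and the Dpysl genes, bind tubulin in the growth cone and were first described as mediators of the response to a semaphorin.

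Expression is given in FPKM, fragments normalised to transcript length and to the size of the library, as deposited by the authors. The number of fragments behind a value is unknown. Pcgf5 itself had 5.18 and 3.63 FPKM in wild type against 1.28 and 1.84 FPKM in Pcgf5-/- cells on day 0, and 9.16 and 5.06 FPKM in wild type against 0.669 and 0.457 FPKM without Pcgf5 on day 6. The genotypes did not overlap on either day. Genes on chromosomes 6 and 11 were shifted as a whole in Pcgf5-/- cells, with a median log2 fold change of 0.41 and 0.48 at day 0 and of 0.37 and 0.38 at day 6, while the medians of the other chromosomes lay between -0.06 and 0.12. Of the members, 9 lie on these 2 chromosomes. The 16 fibroblast markers used for feeder cells summed to 388 and 228 FPKM in wild type and to 248 and 762 FPKM in Pcgf5-/- cells at day 0, and to 20.6 to 52.3 FPKM at day 6, and none of them was at 0 in all samples. The part of feeder RNA in the results was not tested. In such bulk samples, fewer cells of a type and less RNA per cell cannot be told apart.

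At day 6 the wild-type cells carried far more axon guidance RNA than at day 0, and the Pcgf5-/- cells stayed well below them. The summed FPKM of the 74 members was 225 and 198 in wild type and 230 and 268 in Pcgf5-/- cells on day 0, and later, at day 6, 675 and 659 in wild type against 412 and 369 in Pcgf5-/- cells. The genotypes were close to each other at day 0 and far apart at day 6. The CRMPs held the largest part of this sum in wild type at day 6, with 223 and 203 FPKM, followed by the ephrins with 120 and 140 FPKM. Without Pcgf5 the CRMPs summed to 103 and 99.6 FPKM and the ephrins to 56.9 and 60.3 FPKM on that day. The number of members with a mean over 10 FPKM at day 6 was 24 in wild type and 12 in Pcgf5-/- cells.

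**Figure D1:**
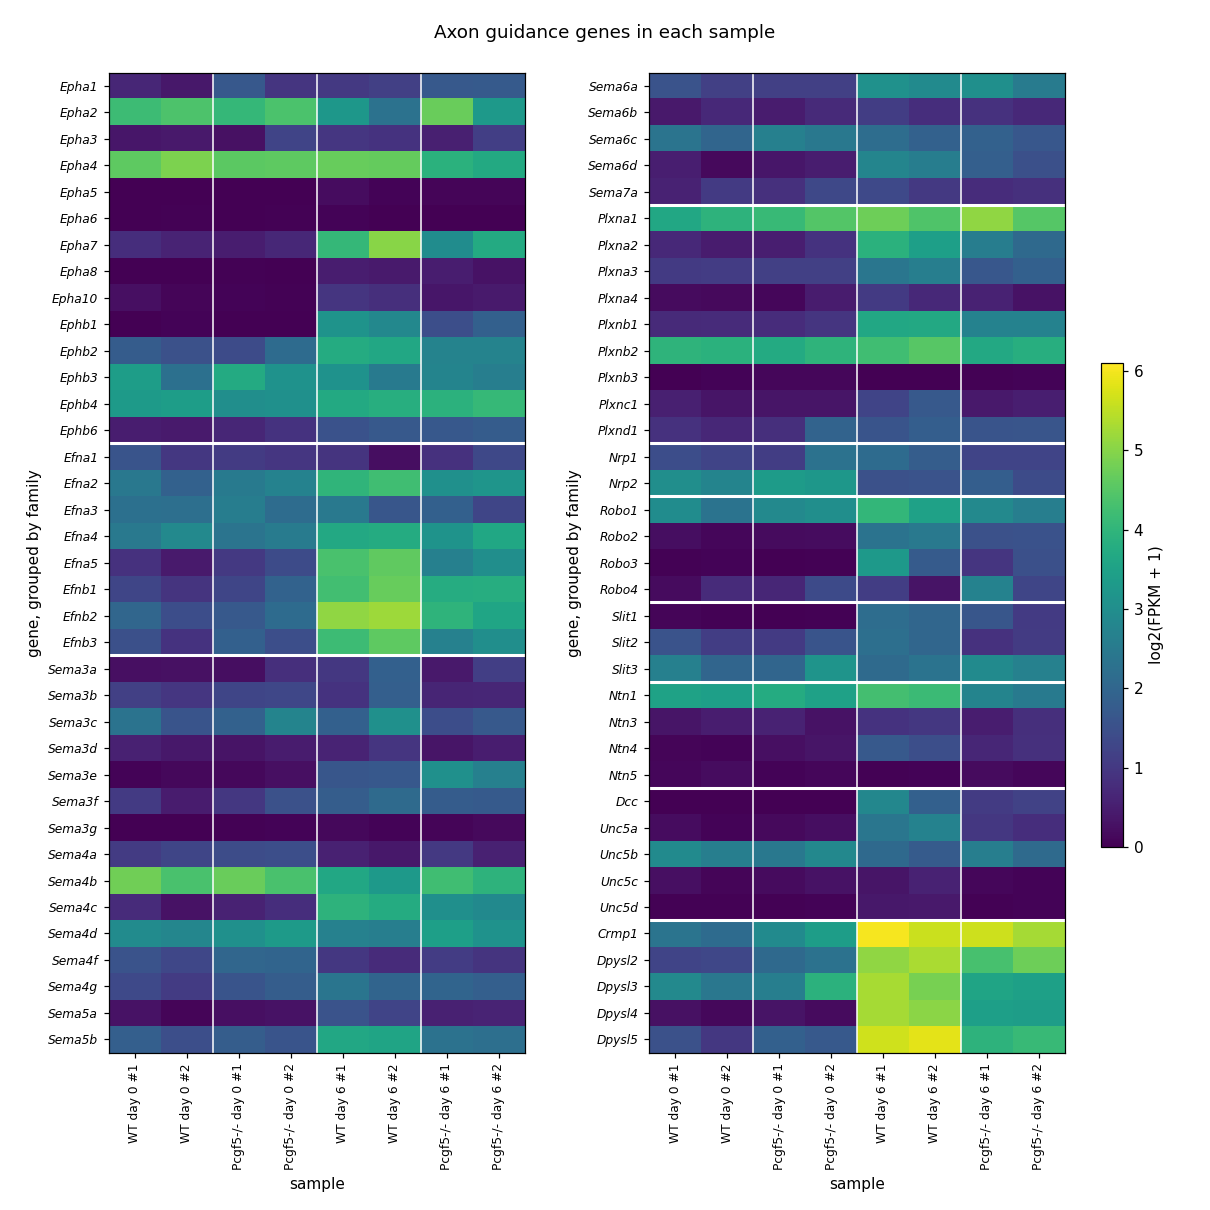
Heatmap of the 74 members in the 8 samples as log2(FPKM + 1), with families separated by white lines. The Dpysl genes, Crmp1, Efna5, Efnb1, Efnb2 and Efnb3 go from dark at day 0 to bright in wild type at day 6, with Crmp1 the brightest at 64.0 FPKM in the first replicate, while Epha4, Sema4b and Epha2 are already bright at day 0.

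For tests, a member needed a mean above 1 FPKM in at least one condition, which 60 of the 74 members and 13214 genes in all met. Changes were tested with limma on log2(FPKM + 1) and are log2 fold changes on that scale, which understate the ratio for weakly expressed genes. Adjusted p-values are those of limma after Benjamini-Hochberg adjustment over all 13214 genes, with 0.05 as the threshold. The p-values rest on the spread between 2 biological replicates per condition, pooled over the 4 conditions and drawn towards a trend over all tested genes. Whether they cover a spread between knockout colonies is not known. Over the days a member "rose" or "fell" only where it passed the threshold. Between the genotypes a member was counted as lower or higher in Pcgf5-/- cells only where it passed.

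In wild type, most members rose over the 6 days. Of the 60 tested members 40 rose and 6 fell, where 34.2% of all tested genes rose and 16.2% fell, and the median log2 fold change was 1.16 in members and 0.22 in all tested genes. All 5 CRMPs rose, as did 6 of 8 ephrins, 6 of 7 tested plexins and 9 of 17 tested semaphorins. The largest rises were those of Dpysl4 and Dpysl5, both CRMPs, in which day 0 and day 6 samples lay far apart. Dpysl4 had 0.217 and 0.0919 FPKM at day 0 and 37.7 and 31.7 FPKM at day 6 (log2 fold change 4.95, SE 0.18, limma adjusted p = 4.22e-06). Dpysl5 had 1.87 and 0.980 FPKM at day 0 and 49.5 and 56.5 FPKM at day 6 (log2 fold change 4.50, SE 0.21, limma adjusted p = 5.98e-06). They were followed by Dpysl2, which went from 1.37 and 1.46 FPKM to 33.2 and 38.8 FPKM (log2 fold change 3.93, SE 0.19, limma adjusted p = 7.41e-06). Epha7, an Eph receptor, and Efna5, a ligand of the A class, rose as steeply and without overlap. Epha7 went from 0.730 and 0.516 FPKM to 15.8 and 31.6 FPKM (log2 fold change 3.85, SE 0.35, limma adjusted p = 8.34e-05). Efna5 went from 0.816 and 0.356 FPKM to 19.4 and 23.6 FPKM (log2 fold change 3.83, SE 0.24, limma adjusted p = 1.72e-05).

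The members that fell in wild type were genes already expressed in mESCs. Epha2, an Eph receptor, had 17.1 and 20.1 FPKM at day 0 and 8.41 and 3.96 FPKM at day 6 (log2 fold change -1.52, SE 0.44, limma adjusted p = 0.0210). Nrp2, a neuropilin, went from 7.02 and 5.74 FPKM to 1.87 and 1.96 FPKM (log2 fold change -1.33, SE 0.20, limma adjusted p = 0.00102). Sema4b, a membrane-bound semaphorin, went from 26.5 and 19.5 FPKM to 11.7 and 8.73 FPKM (log2 fold change -1.09, SE 0.22, limma adjusted p = 0.00381). None of these overlapped between the days. Unc5b, a netrin receptor, and Sema4a followed with -0.84 and -0.69, and Sema4f with -0.56. Fewer members and fewer of all tested genes fell without the first wild-type sample of day 0 or the second wild-type sample of day 6. Members with the highest mean in wild type at day 0 were Epha4 (25.9 FPKM), Sema4b (23.0 FPKM) and Epha2 (18.6 FPKM).

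In Pcgf5-/- cells the rise over the 6 days took in fewer members. Of the 60 tested members 25 rose and 6 fell, where 21.9% of all tested genes rose and 10.4% fell, with a median log2 fold change of 0.50 in members and 0.13 in all tested genes. Dpysl4 and Dpysl5 rose again, to 9.85 and 9.58 FPKM and to 14.4 and 16.2 FPKM at day 6 (log2 fold changes 3.18 and 2.23). Ntn1, which encodes the secreted cue netrin-1, went in opposite directions in the 2 genotypes. In wild type it rose from 10.4 and 9.91 FPKM to 18.3 and 16.8 FPKM (log2 fold change 0.73, SE 0.17, limma adjusted p = 0.00726). In Pcgf5-/- cells it fell from 12.5 and 10.3 FPKM to 5.75 and 4.70 FPKM (log2 fold change -0.99, SE 0.17, limma adjusted p = 0.00382). The days did not overlap in either genotype. Epha4 fell in Pcgf5-/- cells, from 22.5 and 22.9 FPKM to 13.8 and 12.1 FPKM (log2 fold change -0.77, limma adjusted p = 0.00692), and had a log2 fold change of -0.07 in wild type. Nrp2, Sema4a, Sema4f and Sema6c also fell in Pcgf5-/- cells.

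**Figure D2:**
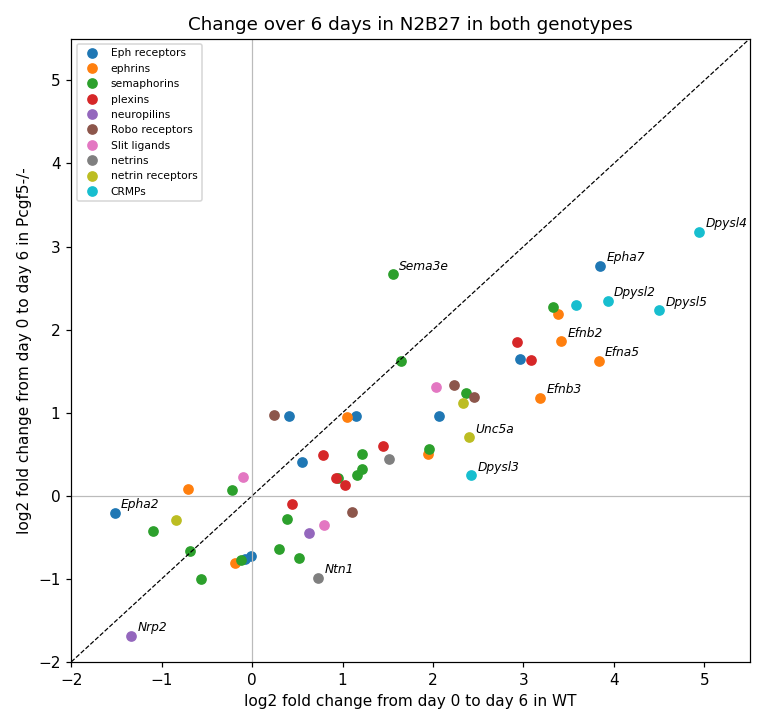
Log2 fold change from day 0 to day 6 in wild type (x axis) and in Pcgf5-/- cells (y axis) for the 60 tested members, coloured by family, with equal change on the dashed line. Most members that changed strongly in wild type sit below the line, Ntn1 at 0.73 and -0.99, and Sema3e stands above it at 1.56 and 2.67.

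At day 0 no member passed the threshold of limma between the genotypes, in either direction. Pcgf5 itself did not pass on that day (log2 fold change -1.07, SE 0.28, limma adjusted p = 0.105), so a missing call does not show equal levels. Of all tested genes 0.288% were higher and 0.0454% lower in Pcgf5-/- cells, and at an unadjusted p under 0.05 there were 6 of the 60 tested members, against 17.4% of all tested genes. The 6 members, all fitted higher in Pcgf5-/- cells, were Crmp1, Dpysl2, Dpysl5, Epha1, Efna5 and Sema4f. Epha1 and Sema4f lie on chromosome 6, where the median log2 fold change of all tested genes was 0.41 at day 0. Dpysl2 had 1.37 and 1.46 FPKM in wild type against 3.22 and 3.93 FPKM in Pcgf5-/- cells (log2 fold change 0.92, SE 0.19, limma adjusted p = 0.0711). Crmp1 had 4.08 and 3.36 FPKM in wild type against 6.57 and 9.54 FPKM in Pcgf5-/- cells (log2 fold change 0.92, SE 0.22, limma adjusted p = 0.0872). The genotypes did not overlap for these CRMPs, and neither passed the threshold. The second Pcgf5-/- sample of day 0, which had the highest fibroblast marker sum, also had the highest day 0 level of Dpysl3 (14.1 FPKM, against 4.35 to 6.35 FPKM in the other 3 samples) and of Slit3 (7.95 FPKM, against 2.95 to 5.26 FPKM). The median log2 fold change at day 0 was 0.18 in members and 0.11 in all tested genes.

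At day 6 the genotypes parted, and nearly all members that passed the threshold were lower in Pcgf5-/- cells. Of the 60 tested members 26 were lower and 1, Sema3e, was higher, where 7.05% of all tested genes were lower and 9.57% higher. The median log2 fold change was -0.71 in members and 0.02 in all tested genes. The samples of the genotypes did not overlap, with Pcgf5-/- cells below wild type, in 37 of the 60 tested members, and above in 9, where 28.8% of all tested genes lay below and 33.4% above. The lower members were spread over ligands (11 of 30 tested), receptors (12 of 25) and CRMPs (3 of 5). Of the 9 members on chromosomes 6 and 11, whose genes were shifted upwards as a whole, Efnb3 and Ntn1 were lower. Not past the threshold, Epha1, Slit3, Plxna1, Sema4f and Ephb6 had positive log2 fold changes of 0.63, 0.59, 0.20, 0.13 and 0.12. Plxnd1 had -0.10, and Plxna4 was not tested. The part of the chromosome shift in these values was not tested. Lower calls became fewer among members, and among all tested genes, when any sample of day 6 was left out. All 27 members called at day 6 kept their direction in these fits. Dpysl4, Dpysl5, Ntn1, Sema5b and Unc5a passed the threshold under every alternative in which they were tested, and each of the other members called at day 6 missed it under at least one.

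**Figure D3:**
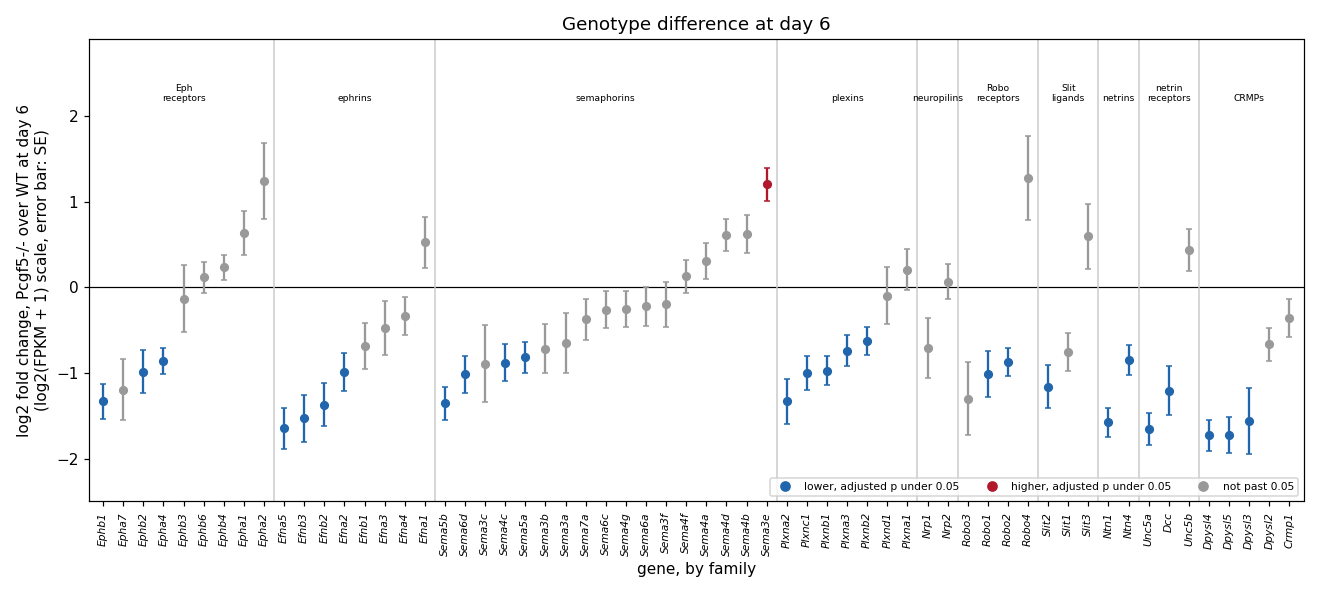
Log2 fold change of Pcgf5-/- cells over wild type at day 6 for the 60 tested members by family, with the standard error as bars, blue for the 26 lower members, red for Sema3e and grey for members not past an adjusted p of 0.05. Blue points lie between -0.63 (Plxnb2) and -1.73 (Dpysl4 and Dpysl5), and every family other than the neuropilins holds at least 1.

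The promoters of the members were rich in CpG dinucleotides. RefSeq promoter sequences (table of GRCm38.p6) were found for 61 of the 74 members by symbol, and the 250 bases upstream of the transcript start were read. The median number of CpG was 16 in 78 promoters of members, 17.5 in 26 promoters of 21 members lower at day 6 and 6 in all 32851 promoters. The GC content had medians of 64.4%, 68.2% and 52.4%. These are descriptions of reference sequence, and promoters of 1 gene can overlap. All promoters include those of genes not expressed here, and the promoters of the 13214 tested genes were not compared. As examples of a CRMP, an ephrin, a netrin receptor and a Slit, 4 members lower in Pcgf5-/- cells at day 6 were taken. Their upstream sequences and that of Sema3e, which was higher, are shown. They are written 5′ to 3′ on the strand of the gene, with CpG dinucleotides in capitals. Exact matches place them in NCBIM37 (mm9) at chr5:31013687-31013936 on the plus strand for Dpysl5, chr17:63230667-63230916 on the minus strand for Efna5, chr13:55050522-55050771 on the plus strand for Unc5a, chr5:48374144-48374393 on the plus strand for Slit2 and chr5:14025026-14025275 on the plus strand for Sema3e, in all cases outside annotated exons.
Dpysl5: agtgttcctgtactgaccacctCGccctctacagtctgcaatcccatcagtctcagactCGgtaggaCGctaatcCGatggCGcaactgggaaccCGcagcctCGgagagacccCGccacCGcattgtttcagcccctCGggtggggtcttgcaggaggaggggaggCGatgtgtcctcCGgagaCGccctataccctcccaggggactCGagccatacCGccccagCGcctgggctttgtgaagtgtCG
Efna5: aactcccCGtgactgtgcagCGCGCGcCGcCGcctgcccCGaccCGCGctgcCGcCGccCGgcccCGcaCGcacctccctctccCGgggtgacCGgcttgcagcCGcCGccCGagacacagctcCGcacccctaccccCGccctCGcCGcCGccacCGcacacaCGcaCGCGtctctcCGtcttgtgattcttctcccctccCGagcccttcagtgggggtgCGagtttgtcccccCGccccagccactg
Unc5a: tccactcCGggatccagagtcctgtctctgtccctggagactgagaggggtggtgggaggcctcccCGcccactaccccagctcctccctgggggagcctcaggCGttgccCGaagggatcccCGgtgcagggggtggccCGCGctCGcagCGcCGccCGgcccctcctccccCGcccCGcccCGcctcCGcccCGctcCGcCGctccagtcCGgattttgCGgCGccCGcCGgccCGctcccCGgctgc
Slit2: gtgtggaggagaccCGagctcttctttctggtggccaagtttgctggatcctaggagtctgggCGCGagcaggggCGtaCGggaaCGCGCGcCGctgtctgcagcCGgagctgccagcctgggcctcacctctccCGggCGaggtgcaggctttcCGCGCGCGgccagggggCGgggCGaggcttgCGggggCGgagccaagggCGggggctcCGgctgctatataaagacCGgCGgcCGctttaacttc
Sema3e: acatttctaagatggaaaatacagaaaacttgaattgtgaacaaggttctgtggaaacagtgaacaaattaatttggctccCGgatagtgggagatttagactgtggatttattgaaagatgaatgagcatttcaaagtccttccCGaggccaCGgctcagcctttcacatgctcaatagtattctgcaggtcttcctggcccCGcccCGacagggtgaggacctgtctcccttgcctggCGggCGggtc
Efna5 holds 32 CpG, Unc5a and Slit2 25 each, Dpysl5 17 and Sema3e 7. The 26 promoters of lower members had quartiles of 12.25 and 24.5 CpG. Some of them held as few as Sema3e, such as 1 of Robo2 with 4 and 1 of Sema6d with 6. A link between the number of CpG and the direction of change was not tested. The GC box GGGCGG, searched on both strands, was present in 71.8% of the members' promoters and in 32.7% of all promoters, and it occurs in all of the sequences shown. The TATA box TATAAA was present in 2.56% and 12.4%, and of those shown only Slit2 holds it. The E-box CANNTG was present in 48.7% and 66.2%, and the octamer ATGCAAAT in none of the members' promoters and in 1.60% of all promoters. None of these motifs contains another, and a match is not a binding site.

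CRMPs were among the most abundant members in wild type at day 6, and Dpysl3, Dpysl4 and Dpysl5 were lower in Pcgf5-/- cells. Dpysl4 (chromosome 7, 146271900 to 146287690) had 37.7 and 31.7 FPKM in wild type against 9.85 and 9.58 FPKM in Pcgf5-/- cells (log2 fold change -1.73, SE 0.18, limma adjusted p = 0.00377). Dpysl5 (chromosome 5, 31014268 to 31101742) had 49.5 and 56.5 FPKM in wild type against 14.4 and 16.2 FPKM in Pcgf5-/- cells (log2 fold change -1.73, SE 0.21, limma adjusted p = 0.00421). All wild-type samples lay far above all Pcgf5-/- samples for both genes. Dpysl3 had 38.5 and 27.7 FPKM in wild type against 10.9 and 9.97 FPKM in Pcgf5-/- cells (log2 fold change -1.56, SE 0.39, limma adjusted p = 0.0308). The genotypes did not overlap for it either. Dpysl2 did not pass the threshold, with 33.2 and 38.8 FPKM against 19.1 and 25.9 FPKM (log2 fold change -0.67, limma adjusted p = 0.0506). Crmp1, the member with the highest mean in both genotypes, had 64.0 and 48.0 FPKM against 48.7 and 38.0 FPKM, which overlapped (log2 fold change -0.36, limma adjusted p = 0.306).

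Among the ephrins, Efna2, Efna5, Efnb2 and Efnb3 were lower in Pcgf5-/- cells at day 6. Efnb2, the ephrin with the highest mean in wild type at day 6, encodes a transmembrane ligand of EphB receptors and had 32.8 and 36.2 FPKM in wild type against 14.7 and 11.03 FPKM in Pcgf5-/- cells (log2 fold change -1.37, SE 0.25, limma adjusted p = 0.0117). Efna5 (chromosome 17, 62952306 to 63230666), a GPI-anchored ligand, had 19.4 and 23.6 FPKM in wild type against 5.32 and 7.06 FPKM in Pcgf5-/- cells (log2 fold change -1.65, SE 0.24, limma adjusted p = 0.00739). The genotypes did not overlap for either ligand. Efnb3 had 17.1 and 22.9 FPKM against 5.46 and 7.03 FPKM (log2 fold change -1.53, SE 0.27, limma adjusted p = 0.0111). Efna2 had 14.9 and 17.7 FPKM against 7.35 and 8.02 FPKM (log2 fold change -0.99, SE 0.22, limma adjusted p = 0.0212). Both were again without overlap. Efnb1 had 18.2 and 24.8 FPKM against 12.8 and 12.9 FPKM, apart but not past the threshold (limma adjusted p = 0.113).

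Of the 9 tested Eph receptors, Epha4, Ephb1 and Ephb2 were lower in Pcgf5-/- cells at day 6. Epha4, which binds ephrins of both classes, had 24.6 and 24.2 FPKM in wild type against 13.8 and 12.1 FPKM in Pcgf5-/- cells (log2 fold change -0.87, SE 0.15, limma adjusted p = 0.0107). Ephb1 had 7.83 and 6.24 FPKM against 1.75 and 2.66 FPKM (log2 fold change -1.33, SE 0.20, limma adjusted p = 0.00810). Ephb2 had 12.5 and 11.6 FPKM against 5.59 and 5.62 FPKM (log2 fold change -0.98, SE 0.25, limma adjusted p = 0.0343). The genotypes did not overlap for any of these receptors. Epha7 had 15.8 and 31.6 FPKM against 6.84 and 12.3 FPKM, with wild-type replicates far from each other (limma adjusted p = 0.0524). Epha2 had 8.41 and 3.96 FPKM in wild type against 25.1 and 8.93 FPKM in Pcgf5-/- cells, apart but with replicates far from each other, and was not past the threshold (log2 fold change 1.24, limma adjusted p = 0.0923).

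Among the semaphorins Sema4c, Sema5a, Sema5b and Sema6d, all membrane-bound, were lower in Pcgf5-/- cells at day 6, and the secreted Sema3e was higher. No other member was higher past the threshold in this fit. A replicate block for each day gave 5 higher of 60 members and 1887 higher of all 13214 genes. Sema3e (chromosome 5, 14025276 to 14256689) had 2.08 and 2.21 FPKM in wild type against 7.34 and 5.29 FPKM in Pcgf5-/- cells (log2 fold change 1.203, SE 0.20, limma adjusted p = 0.00913). Sema5b had 11.6 and 10.9 FPKM against 3.89 and 3.66 FPKM (log2 fold change -1.36, SE 0.20, limma adjusted p = 0.00727). Each gene was without overlap between the genotypes, in opposite directions. Sema4c, the semaphorin with the highest mean in wild type at day 6, had 14.4 and 12.4 FPKM against 7.16 and 6.47 FPKM (log2 fold change -0.88, limma adjusted p = 0.0288). Sema6d had 5.89 and 5.04 FPKM against 2.61 and 1.82 FPKM (log2 fold change -1.02, limma adjusted p = 0.0178). Sema5a had the lowest levels of these, with 1.94 and 1.39 FPKM against 0.482 and 0.524 FPKM (log2 fold change -0.82, limma adjusted p = 0.0214). All 3 were apart. Without the first Pcgf5-/- sample of day 6, Sema3e no longer passed the threshold. The secreted Sema3a, Sema3b, Sema3c and Sema3f did not pass, with log2 fold changes of -0.65, -0.72, -0.89 and -0.20.

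Of the plexins, the semaphorin receptors, 5 of 7 tested members were lower in Pcgf5-/- cells at day 6. Plxna2 had 14.0 and 9.85 FPKM in wild type against 5.01 and 3.26 FPKM in Pcgf5-/- cells (log2 fold change -1.33, SE 0.26, limma adjusted p = 0.0143). Plxnb1 had 11.6 and 11.9 FPKM against 5.51 and 5.48 FPKM (log2 fold change -0.97, SE 0.17, limma adjusted p = 0.0110). Neither gene overlapped between the genotypes, and the replicates lay closer together for Plxnb1 than for Plxna2. Plxnc1 had 1.39 and 2.24 FPKM against 0.340 and 0.433 FPKM (log2 fold change -1.005, limma adjusted p = 0.0149). Plxna3 and Plxnb2 differed less, with means in Pcgf5-/- cells at 51.1% and 62.7% of the wild-type mean. Plxna1, the plexin with the highest mean, had 25.8 and 20.4 FPKM in wild type against 33.0 and 21.4 FPKM in Pcgf5-/- cells, which overlapped (log2 fold change 0.20, limma adjusted p = 0.602). Plxnd1, a receptor for Sema3e, had 1.99 and 2.52 FPKM against 2.00 and 2.07 FPKM. Neither neuropilin passed, with Nrp1 at 3.41 and 2.49 FPKM against 1.40 and 1.39 FPKM (log2 fold change -0.71, limma adjusted p = 0.202).

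In the Slit and Robo pathway the ligand Slit2 and the receptors Robo1 and Robo2 were lower in Pcgf5-/- cells at day 6. Slit2 had 3.69 and 3.01 FPKM in wild type against 0.820 and 1.07 FPKM in Pcgf5-/- cells (log2 fold change -1.16, SE 0.25, limma adjusted p = 0.0196). Robo1 had 15.4 and 10.2 FPKM against 6.38 and 5.14 FPKM (log2 fold change -1.01, SE 0.27, limma adjusted p = 0.0375). Robo2 had 4.01 and 4.50 FPKM against 1.86 and 1.88 FPKM (log2 fold change -0.87, SE 0.17, limma adjusted p = 0.0139). The genotypes did not overlap for any of them. Slit1 missed the threshold with 3.55 and 3.02 FPKM against 2.1 and 1.06 FPKM (limma adjusted p = 0.0506). Slit3, the Slit with the highest mean in wild type at day 6, had 3.31 and 4.002 FPKM against 6.61 and 5.46 FPKM (log2 fold change 0.59, limma adjusted p = 0.315). Robo4, a receptor of endothelial cells, had 1.16 and 0.245 FPKM against 5.56 and 1.40 FPKM, with replicates too far apart for a call (limma adjusted p = 0.115). Among 5 tested endothelial markers, Eng and Egfl7 were higher in Pcgf5-/- cells at day 6. Kdr, Tek and Flt1 did not pass, with log2 fold changes of 0.185, 0.78 and -0.59. Cdh5, Tie1 and Emcn were too low to be tested. The list of 8 summed to 17.4 and 11.2 FPKM in wild type against 29.3 and 25.8 FPKM in Pcgf5-/- cells. At day 0 it summed to 30.0 and 33.3 FPKM in wild type. The part of endothelial cells in the level of Robo4 was not tested.

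In the netrin pathway both tested ligands, Ntn1 and Ntn4, and the receptors Unc5a and Dcc were lower in Pcgf5-/- cells at day 6. Ntn1 (chromosome 11, 68022866 to 68200328) had 18.3 and 16.8 FPKM in wild type against 5.75 and 4.70 FPKM in Pcgf5-/- cells (log2 fold change -1.58, SE 0.17, limma adjusted p = 0.00377). Unc5a (chromosome 13, 55050793 to 55107379), a receptor in the repulsive response to netrin, had 4.22 and 5.48 FPKM against 0.982 and 0.730 FPKM (log2 fold change -1.65, SE 0.19, limma adjusted p = 0.00393). Its mean in Pcgf5-/- cells was 17.6% of the wild-type mean, and the genotypes were far apart for both genes. Dcc, the attractive receptor, had 6.04 and 2.63 FPKM against 1.10 and 1.29 FPKM (log2 fold change -1.21, SE 0.29, limma adjusted p = 0.0267). Ntn4 had 2.28 and 1.77 FPKM against 0.573 and 0.786 FPKM (log2 fold change -0.85, SE 0.18, limma adjusted p = 0.0176). Neither overlapped. Unc5b had 3.24 and 2.39 FPKM against 5.06 and 3.34 FPKM and did not pass the threshold.

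The genotype difference itself changed between the days for 9 members, all towards lower values in Pcgf5-/- cells at day 6. They were Dpysl2, Dpysl4, Dpysl5, Efna2, Efna5, Efnb3, Ntn1, Sema5b and Unc5a, as tested by the interaction of genotype and day, and none passed the other way, where 1.75% of all tested genes passed below and 1.34% above. Dpysl5 had the largest interaction, with a log2 genotype difference of 0.54 at day 0 and -1.73 at day 6 (interaction -2.27, SE 0.30, limma adjusted p = 0.0244). Efna5 went from 0.56 to -1.65 (interaction -2.21, SE 0.34, limma adjusted p = 0.0288) and Efnb3 from 0.48 to -1.53 (interaction -2.01, SE 0.38, limma adjusted p = 0.0387). For these genes the genotypes were closer at day 0 than at day 6, and the day 6 difference has the opposite sign. Of the 9, Dpysl2 alone did not pass at day 6 itself, and its difference went from 0.92 to -0.67. The interaction calls of the 9 members were lost without the second sample of either genotype at day 0. They were also lost without either Pcgf5-/- sample or the second wild-type sample of day 6. In the same fits far fewer of all tested genes had a lower interaction, and all 9 members kept its sign.

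**Figure D4:**
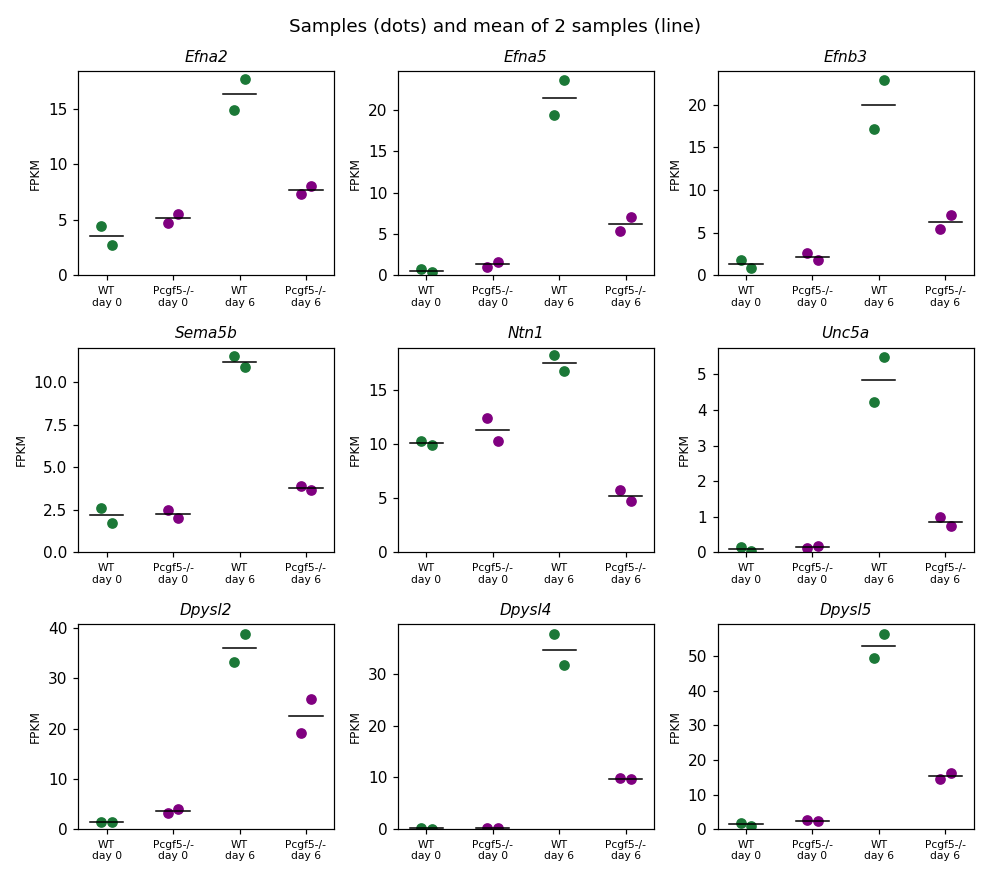
FPKM of the 9 members whose genotype difference changed between the days, in wild type (green) and Pcgf5-/- cells (purple) at day 0 and day 6, with dots for the 2 samples and a line for their mean. Wild type at day 6 stands above all other conditions in each panel, and Ntn1 is lower in Pcgf5-/- cells at day 6 (5.75 and 4.70 FPKM) than at day 0 (12.5 and 10.3 FPKM).

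The markers of cell types moved alongside. At day 6, 10 of 12 neural progenitor markers and 7 of 15 tested neuron markers were lower in Pcgf5-/- cells and none was higher, and 11 of 12 naive mESC markers were higher. Neural progenitor markers summed to 454 and 450 FPKM in wild type and to 168 and 178 FPKM in Pcgf5-/- cells, and neuron markers to 689 and 484 FPKM and to 282 and 252 FPKM. Naive mESC markers summed to 165 and 75.9 FPKM in wild type and to 542 and 493 FPKM in Pcgf5-/- cells. No list had a marker at 0 in all samples. Neural crest markers (6 tested) and primitive endoderm markers (7 tested) had none past the threshold at day 6, with sums of 21.8 and 25.4 FPKM against 25.1 and 17.96 FPKM and of 99.1 and 16.5 FPKM against 28.4 and 11.3 FPKM. Of 16 fibroblast markers 1, S100a4, was lower. The part of these cell types in the members' levels was not tested.

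Among 63 tested genes of growth cone signalling and other guidance molecules, 8 were lower and 1 higher in Pcgf5-/- cells at day 6. Their median log2 fold change was -0.29. Of all tested genes 7.05% were lower and 9.57% higher, with a median of 0.02. Rgma, a repulsive guidance molecule, had 60.8 and 70.2 FPKM in wild type against 18.6 and 24.98 FPKM in Pcgf5-/- cells (log2 fold change -1.56, limma adjusted p = 0.0056). Cxcr4, a chemokine receptor, had 17.9 and 31.2 FPKM against 6.70 and 7.22 FPKM (log2 fold change -1.63, limma adjusted p = 0.0115). Nrcam, an adhesion molecule of axons, had 9.03 and 8.43 FPKM against 2.83 and 4.16 FPKM (log2 fold change -1.13, limma adjusted p = 0.0110). All 3 were apart, with wild type above. Flrt3, a ligand of Unc5 receptors, was lower by 1.11 on the log2 scale, and Mical3, an enzyme that oxidises actin, was higher by 0.98. In wild type over the 6 days 37 of these 63 genes rose and 5 fell, where 34.2% of all tested genes rose and 16.2% fell.

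The 14 members that were not tested stayed below a mean of 1 FPKM in every condition: Epha3, Epha5, Epha6, Epha8, Epha10, Ntn3, Ntn5, Plxna4, Plxnb3, Sema3d, Sema3g, Sema6b, Unc5c and Unc5d. Epha5 was listed at 0 in all day 0 samples. Unc5d had 0.316 and 0.342 FPKM in wild type at day 6 and 0.0246 and 0.0374 FPKM in Pcgf5-/- cells, and Epha10 had 0.914 and 0.772 FPKM against 0.289 and 0.351 FPKM. Some members are neighbours: Robo3 and Robo4 are 2.0 kb apart, Efna3 and Efna4 10.5 kb, and Efna1 and Efna3 34.0 kb. Robo3 and Robo4 had log2 fold changes of -1.30 and 1.27 at day 6, neither past the threshold. The locus of Unc5a overlaps that of Hk3, and how reads of overlapping genes were divided is not given in the sources used here. Members had longer loci than other genes, with medians of 53.4 kb and 21.2 kb.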

How the data were processed

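RNA-seq libraries from poly(A) RNA of 8 samples were compared, 2 for each of 4 conditions. The submitters' processing notes name TopHat2 2.0.4, Cufflinks 2.1.1 and build mm9, and the annotation is not given in the sources used here. The deposited values are FPKM per gene and sample, which the authors computed with Cufflinks after trimming and removing duplicate reads, and so take library size and gene length into account. Removing duplicates lowers the values of abundant transcripts. The number of fragments behind each FPKM is not held in the files, so no interval from counting error was given. Locus starts, which count from 0 in the files, were written from 1.

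FPKM values were transformed to log2(FPKM + 1), and the 13214 genes with a mean over 1 FPKM in at least one condition were fitted with limma 3.58.1 in R 4.3.3 (Python 3.11.15 for tables), with a mean for each condition, all 8 samples and a trend of the variance on expression. Contrasts were the genotypes on each day, the days in each genotype and the interaction, adjusted by Benjamini-Hochberg over all tested genes. The fit was checked on simulated data for the genotypes at day 6, with changes placed only in genes above a minimum of expression. Of 4-fold changes 90.4% were called and of 2-fold changes 55.0%, and 5.58% of calls were false. A change of 2-fold or less can therefore go uncalled. The members and all lists were chosen with earlier results of these data known. Full statistics were given for members past 0.05 at day 6 with samples apart (at most 25, by size), those past 0.05 at day 0 or for the interaction, the highest member of each family in wild type at day 6 and the 5 largest rises and falls in wild type. Any member could be named with its FPKM, and the statistics of other members in the text, such as Robo4 and Slit1, were added after their values were seen. The lists were feeder fibroblast, neural progenitor, neuron, naive mESC, neural crest, endothelial and primitive endoderm markers and growth cone genes (Gap43 and Pdgfra are on 2 lists). Alternatives were a pseudocount of 0.1, a minimum of 5 FPKM or none, quantile normalization, the replicate number as a block, no trend, only the compared groups and leaving out each sample. A block for each day was added after seeing the data.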

Additional observations from a re-analysis of the deposited data

Results flagged for a closer look

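With 2 samples per condition, no sample could be tested for standing apart within its condition. The genotype difference changed between day 0 and day 6, by the interaction term of limma, for 9 members. The interaction, as the log2 genotype difference at day 6 minus that at day 0, was -2.27 for Dpysl5, -2.21 for Efna5, -2.01 for Efnb3, -1.77 for Dpysl4, -1.72 for Ntn1, -1.70 for Unc5a, -1.58 for Dpysl2, -1.45 for Efna2 and -1.40 for Sema5b. Its limma adjusted p lay between 0.0244 (Dpysl5 and Ntn1) and 0.0491 (Efna2), and over the alternatives the adjusted p of Dpysl5 ranged from 0.0166 to 0.103. Efnb3 and Ntn1 lie on chromosome 11, where the median genotype difference of all genes was 0.48 at day 0 and 0.38 at day 6.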

How the results depend on the processing

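The 27 members that differed between the genotypes at day 6 kept their direction under every alternative in which they were fitted. The counts moved more. Without a filter on low values, 14 of 74 members were lower at day 6 (26 of 60 in the reported fit), 2 fell in wild type over the 6 days and 3 had a lower interaction. Of all 24849 genes in that fit, 458 were lower at day 6, 1720 fell in wild type and 128 had a lower interaction. In the reported fit these were 932, 2146 and 231 of 13214 genes. With a minimum of 5 FPKM, 3 of 35 members fell in Pcgf5-/- cells, as did 1021 of all 9831 genes. With a pseudocount of 0.1, 4 members had a lower interaction, as had 108 of all 13214 genes. The members higher at day 6 were 2 with quantile normalization, 2 without the variance trend and 1 in the reported fit. Of all 13214 genes, 1249, 1172 and 1265 were higher in these fits. Leaving out any sample of day 6 gave fewer lower members at day 6, and fewer of all tested genes were lower too. The number of higher members at day 6 moved in both directions, and falls in wild type became fewer in some fits. Leaving out any sample gave fewer lower interactions among members, and in most fits among all tested genes. Plxna1, not past the threshold, ranged at day 6 from -0.10 without the first Pcgf5-/- sample to 0.50 without the second, against 0.20 in the reported fit. The interaction could not be given from only the compared groups. Quantile normalization moved the median of all genes from 0.22 to 0.005 for the days in wild type, where rises and falls went from 4522 and 2146 to 3181 and 3020 among all genes and from 40 and 6 to 33 and 8 among members. The median of the genotypes at day 0 moved from 0.11 to -0.006. The 46 members that changed in wild type kept their direction under every alternative in which they were fitted, and Sema3a was not fitted without the second wild-type sample of day 6, where it falls under the FPKM minimum. Same-numbered replicates deviated together between genotypes at day 6 (r = 0.39). They did so little at day 0 (r = 0.10) and not between days (r = -0.08 to -0.02). The authors' methods mention fold changes in paired samples of the genotypes, without saying which samples form a pair. The labels do not say what samples of one number share. The reported fit therefore has no block, and a pairing of the genotypes within a day was not settled by these values. A replicate block gave 29 lower and 2 higher members at day 6, and 1005 lower and 1405 higher of all 13214 genes. A block for each day, added after seeing the data, gave 29 lower and 5 higher members at day 6. It gave 1 higher member at day 0, and 13 lower interactions (9 in the reported fit) and 1 higher. Of all 13214 genes it gave 1348 lower and 1887 higher at day 6, 237 higher at day 0, and 610 lower and 557 higher interactions. The depth behind single values is unknown, which limits members below 1 FPKM most.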
